A study of Mus musculus with 20 samples.

Results

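The experiment compared thymic group 2 innate lymphoid cells (ILC2) that received the cytokine IL-25 with the same cells given vehicle. The cells came from the thymus of male wild-type mice, were sorted for high IL-25 receptor on the surface (IL25R+), and grew in wells with 10 ng/mL of IL-7 for 12 h and, after a change of medium, for 24 h more. They then received recombinant IL-25 at 10 ng/mL or phosphate-buffered saline for 24 h. The 6 libraries described here, 3 with vehicle and 3 with IL-25, were all the libraries of these 2 groups, out of 20 in the series. Of the other IL25R+ groups, 3 libraries with IL-33 at 10 ng/mL and 3 with both cytokines at that dose served to estimate the spread between replicates and to ask what IL-25 did on top of IL-33. All 12 libraries share IL-7. Whether replicates are separate mice or wells is not given in the labels, and p-values therefore measure a spread between samples that may be technical.

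ILC2 are lymphocytes without an antigen receptor that answer tissue signals with type-2 cytokines such as IL-13 and IL-5. IL-25, which tuft cells release, binds a receptor of the subunits IL17RB and IL17RA and signals through adaptors that lead to NF-kB and MAP kinases. IL-33, an alarmin that damaged cells release, binds ST2, the product of Il1rl1, and its co-receptor.

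MARS-seq, which reads the 3' ends of transcripts, gave the counts. Total counts were 834913 to 1423004 in the vehicle libraries and 1499062 to 1685290 in the IL-25 libraries, and 8850 of the 10696 listed genes were counted well enough to test. Levels are given as CPM, counts scaled to a common library size with TMM factors, and 1 count was worth 0.648 to 1.17 CPM in the 6 libraries. Of 15 ILC2 markers 13 had a row. Their summed level was 3404 to 3560 CPM with vehicle and 3715 to 3937 CPM with IL-25, most of it from Thy1, which T cells also express. Il17rb, which encodes the sorted receptor, was at 15.0, 34.0 and 19.9 CPM with vehicle and 17.5, 18.4 and 19.5 CPM with IL-25. Il7r was at 33.3 to 51.2 CPM and Rora, a transcription factor that ILC2 need, at 9.49 to 16.8 CPM over the 6 libraries. Klrg1, a marker of mature ILC2, had 2 counts in each group and was not tested. Transcripts that mark thymocytes were present too: Dntt, the terminal transferase of lymphocyte precursors, was at 627 to 676 CPM with vehicle, Cd8b1 at 152 to 160 CPM, Cd3e at 92.8 to 106 CPM and Rag1 at 10.5 to 19.0 CPM. The sum of the 7 thymocyte markers with a row, of 11 listed, was 957 to 1028 CPM with vehicle and 684 to 727 CPM with IL-25. Dntt alone of the 5 tested passed, at a log2 change of -0.87 ± 0.128 (SE; edgeR adjusted p = 6.36e-05; -0.66 and 0.0514 with the split of the libraries, described in the next paragraph, as a term). In bulk RNA, fewer cells of a type and less RNA per cell cannot be told apart.

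IL-25 changed 1325 of the 8850 genes (15.0%) by edgeR's quasi-likelihood test at an adjusted p under 0.05. Of these, 803 rose (9.07% of those tested) and 522 fell (5.90%), and a change of at least 2-fold was seen for 278 and 104 of them (3.14% and 1.18%). Counts of list members below are to be read against the 15.0%, 9.07% and 5.90% of all tested genes. The median log2 change was 0.72 among the risers, -0.69 among the fallers and -0.03 over all tested genes. For 1302 of the 1325 the libraries of one group lay wholly above those of the other, as they did for 35.3% of all tested genes. Leaving out vehicle library 1 gave 832 calls, and leaving out vehicle library 3 gave 847. One feature of the libraries runs along the comparison. The 3 vehicle libraries, library 3 with IL-33 and the 3 that received both cytokines held more than 10 CPM of Glycam1, while the 3 IL-25 libraries and libraries 1 and 2 with IL-33 held at most 0.731 CPM. A fit with this split as a term called 645 genes, 3.97% of those tested higher and 3.32% lower, and kept 357 of the 1325 in the same direction. Since vehicle and IL-25 lie wholly on opposite sides, that term is estimated from the 3 IL-33 libraries alone. Genes whose call for IL-25 against vehicle ended with it are named in each paragraph. A lost call does not by itself mean that the log2 change went away. For the prostacyclin receptor gene Ptgir the change was 1.05 without the term and 1.04 with it. For the GTPase gene Gimap4 it was 1.25 and 0.06. The split's part in their change was not tested.

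**Figure D1:**
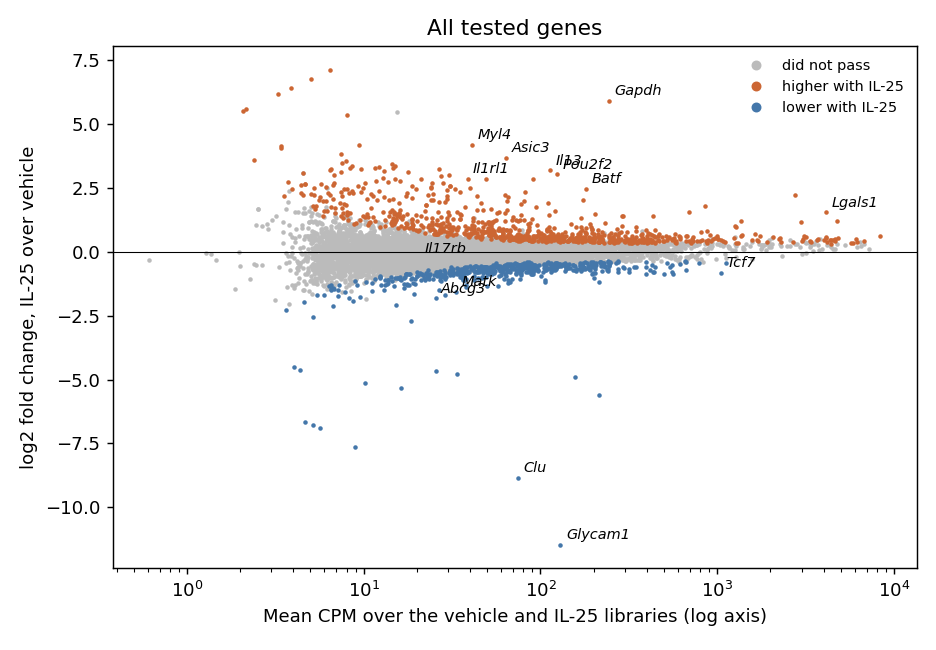
Each point is 1 of the 8850 tested genes, with its mean CPM over the 3 vehicle and 3 IL-25 libraries on a log axis and its fitted log2 fold change of IL-25 over vehicle. Of the genes that passed, 803 lie above 0 and 522 below; the fitted change of genes with no counts in 1 group, such as Glycam1, depends on a prior count.

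Among secreted ligands, Il13, Ebi3, Tnf, both lymphotoxins, Osm, Furin and Ccl5 rose, while Il4 and Csf2 did not pass. Il13, the central type-2 cytokine, was at 15.0, 32.8 and 21.8 CPM in the vehicle libraries and at 133, 171 and 310 CPM in the IL-25 libraries. The groups did not overlap, and the log2 change was 3.21 ± 0.448 (edgeR adjusted p = 3.43e-05). The stretch before the Il13 start site is shown because Il13 was the type-2 cytokine that rose, and because GATA3, whose gene also rose, binds GATA motifs. It comes from RefSeq on GRCm38.p6 (the mm10 assembly), minus strand, chr11:53634683-53634932, and runs from 230 bases before to 20 bases after the start. Capitals mark AGATAA, 1 of the 2 GATA motifs searched on both strands (AGATAA and TGATAA), whose first base lies 81 bases before the start.
Il13: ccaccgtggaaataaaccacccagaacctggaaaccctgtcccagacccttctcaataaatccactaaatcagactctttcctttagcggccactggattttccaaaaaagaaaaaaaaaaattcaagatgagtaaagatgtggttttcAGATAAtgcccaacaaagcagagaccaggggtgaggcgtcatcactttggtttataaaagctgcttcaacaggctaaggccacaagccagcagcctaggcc
Of all 32851 promoter windows (250 bases before to 50 after a start), 18.6% hold a match to either motif, as do 12.2% of the 7187 tested genes with a window. A match stands in 4 of the 5 tested type-2 and related cytokine genes, including ones that did not pass, and in 1 of the 2 that rose. It is not evidence of binding, and a part of GATA3 in the rise of Il13 was not tested.

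Ebi3, a subunit shared by IL-27 and IL-35, went from 3.27, 0 and 3.80 CPM to 27.2, 31.2 and 25.0 CPM (log2 change 3.37 ± 0.509, edgeR adjusted p = 8.65e-05). Tnf went from 24.2, 15.2 and 16.1 CPM to 73.2, 66.6 and 80.0 CPM, for a log2 change of 1.92 ± 0.217 (edgeR adjusted p = 2.57e-06). Each IL-25 library was above each vehicle library for both genes. Ltb and Lta encode lymphotoxin, which shapes lymphoid stroma and thymic medulla. Ltb was already high, at 1747, 1976 and 1772 CPM with vehicle, and reached 2550, 2794 and 2785 CPM, a smaller log2 change of 0.57 ± 0.0983. Lta rose from 137 ± 18.3 to 226 ± 8.44 CPM (SD, n = 3 each). Osm, which encodes oncostatin M, rose from 51.2 ± 6.05 to 127 ± 13.1 CPM, and Furin, a protease that cleaves growth factor precursors, from 61.1 ± 14.8 to 164 ± 26.8 CPM. Ccl5, a chemokine of effector lymphocytes, went from 63.4, 75.0 and 70.2 CPM to 290, 214 and 335 CPM (log2 change 2.02 ± 0.224, edgeR adjusted p = 2.04e-06). Il4 was at 2.34 to 4.74 CPM with vehicle and 4.25 to 9.72 CPM with IL-25 (edgeR adjusted p = 0.141). Csf2 was at 3.80 CPM or less throughout (edgeR adjusted p = 0.997), and Lif, an IL-6 family cytokine, gave edgeR adjusted p = 0.0644. Il5 had 1 count over the 3 vehicle libraries and 9 over the 3 IL-25 libraries, while Il9 had 8 and 0. Both were too low to test. Once the split was a term, Tnf (edgeR adjusted p = 0.241), Lta (0.36) and Osm (0.0786) did not pass.

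Among receptors, those for IL-33, TSLP and IL-2 rose, while the IL-25 receptor itself did not follow. Il1rl1 was at 10.5, 10.5 and 6.64 CPM with vehicle and at 59.0, 85.0 and 60.5 CPM with IL-25, a log2 change of 2.86 ± 0.279 (edgeR adjusted p = 3.36e-07). Crlf2, the TSLP receptor gene, rose from 101 ± 18.4 to 164 ± 34.6 CPM (SD, n = 3 each). Il17rb gave a log2 change of -0.24 ± 0.276 with overlapping groups (edgeR adjusted p = 0.601). Il17ra, the other subunit of the IL-25 receptor, fell from 639, 626 and 677 CPM to 398, 438 and 459 CPM (log2 change -0.58 ± 0.112, edgeR adjusted p = 0.001). Irak3, an inhibitor in the pathway below the IL-1 receptor family and Toll-like receptors, rose from 4.58, 7.03 and 4.74 CPM to 33.7, 30.5 and 32.0 CPM, for a log2 change of 2.59 ± 0.298. In the list of 19 tested alarmin receptors and adaptors, these were 3 that rose (Il1rl1, Irak3 and Crlf2) and 1 that fell (Il17ra), with a median log2 change of 0.28; 1 rose and 0 fell in the fit with the split. With the split term Il1rl1 passed, and Irak3 (edgeR adjusted p = 0.491), Crlf2 (0.192) and Il17ra (0.18) did not. Their log2 changes in that fit were 1.65, 0.60 and -0.42.

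The 3 chains of the IL-2 receptor rose together. Il2ra went from 124, 130 and 133 CPM to 200, 183 and 184 CPM, Il2rb from 37.5 ± 5.86 to 67.9 ± 4.65 CPM, and Il2rg, the chain shared with the IL-7 receptor, from 787 ± 69.2 to 1206 ± 75.4 CPM. Their log2 changes were 0.55 ± 0.118, 0.84 ± 0.176 and 0.61 ± 0.117. Il7r did not pass (log2 change 0.07 ± 0.217), and Il21r, the IL-21 receptor gene, fell by 0.58 ± 0.134 on the log2 scale. None of the 4 that moved passed with the split term (edgeR adjusted p = 0.328, 0.0702, 0.241 and 0.227). Of 12 tested TNF receptor genes 3 rose and 1 fell (1 and 0 with the split term). Tnfrsf25, which encodes DR3, the receptor of TL1A, went from 5.88, 8.20 and 7.59 CPM to 40.8, 44.6 and 36.9 CPM (log2 change 2.52 ± 0.378, edgeR adjusted p = 8e-05). Tnfrsf9, which encodes 4-1BB, was at 0.654, 0 and 4.74 CPM with vehicle and 16.8, 14.9 and 20.9 CPM with IL-25. Its log2 change was 3.26 ± 0.535, and 5.13 without vehicle library 3. Tnfrsf26 fell from 101 ± 8.83 to 54.6 ± 7.49 CPM. Under the split term Tnfrsf9 (edgeR adjusted p = 0.253) and Tnfrsf26 (0.163) did not pass.

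Activation and costimulatory receptors gave 4 risers and 1 faller of 13 tested (3 and 0 with the split term). Cd69, an early activation marker that also holds lymphocytes in tissue, went from 9.15, 18.7 and 20.9 CPM to 65.4, 68.7 and 78.6 CPM (log2 change 2.20 ± 0.222, edgeR adjusted p = 5.45e-07). Icos, a costimulator of ILC2 and T cells, went from 12.4, 8.20 and 14.2 CPM to 44.7, 41.8 and 50.8 CPM, for a log2 change of 1.94 ± 0.306. Btla, an inhibitory receptor, rose from 3.43 ± 0.544 to 12.6 ± 1.40 CPM, and with the split term it did not pass (edgeR adjusted p = 0.404). Of 18 homing and adhesion genes 4 rose and 1 fell, and 2 rose without vehicle library 1 and 1 with the split term. Itgb2, the beta chain of the leukocyte integrins, rose from 78.6 ± 6.03 to 139 ± 6.14 CPM, and Itga4, the alpha-4 integrin of lymphocyte homing, fell from 562, 552 and 525 CPM to 392, 269 and 289 CPM. Cxcr6 was at 6.54 to 11.7 CPM with vehicle and 17.0 to 26.4 CPM with IL-25 but did not pass without vehicle library 1 (edgeR adjusted p = 0.0544) or with the split term (0.36). The prostaglandin receptors Ptger4 (prostaglandin E2) and Ptgir (prostacyclin) rose by 1.17 ± 0.189 and 1.05 ± 0.223 on the log2 scale. Neither passed with the split term (edgeR adjusted p = 0.0893 and 0.2), at log2 changes of 1.08 and 1.04.

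**Figure D2:**
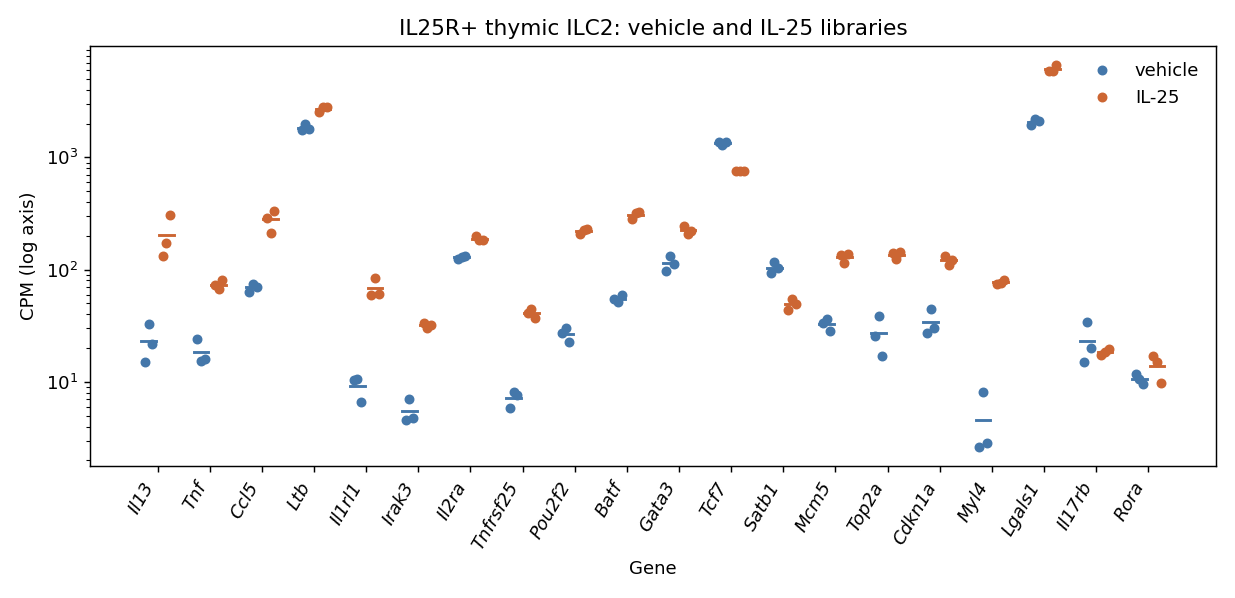
Points are the CPM of single libraries on a log axis and horizontal lines the group means, for 20 genes in the 3 vehicle and 3 IL-25 libraries. The groups do not overlap for the first 18 genes, from Il13 to Lgals1; for Il17rb and Rora they do.

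Transcription factors showed the lowest adjusted p of the comparison. Pou2f2, which encodes the octamer-binding factor Oct-2 (mm10 chr7:25087344-25179726, minus strand), was at 27.5, 30.5 and 22.8 CPM with vehicle and 207, 226 and 229 CPM with IL-25. The log2 change was 3.04 ± 0.145 (edgeR adjusted p = 3.18e-12). Batf, an AP-1 family factor of activated lymphocytes (mm10 chr12:85686669-85709087), went from 54.9, 51.5 and 58.8 CPM to 281, 318 and 326 CPM (log2 change 2.48 ± 0.196, edgeR adjusted p = 1.33e-08). Spib, an Ets family factor, went from 5.88, 12.9 and 10.4 CPM to 35.6, 44.6 and 34.1 CPM. For these 3 genes each IL-25 library was above each vehicle library. Gata3, on which ILC2 depend, went from 97.4, 131 and 113 CPM to 245, 207 and 222 CPM (edgeR adjusted p = 3.43e-05). Bhlhe40 rose by 0.68 ± 0.164 on the log2 scale and did not pass with the split term (edgeR adjusted p = 0.17). Of 17 tested ILC2 identity factors, Gata3 and Bhlhe40 rose and Gfi1 and Ikzf1, both zinc finger factors, fell (median log2 change 0.04; 1 higher and 1 lower with the split term). Gfi1 fell by 0.78 ± 0.258 with overlapping groups and lost its call on leaving out library 1 or 2 of vehicle, 1 or 3 of IL-25 or 2 of both cytokines (edgeR adjusted p up to 0.184), by DESeq2, with no filter on low counts and with the split term (0.423). Ikzf1 fell by 0.55 ± 0.147 and lost its call on leaving out library 1 or 2 of vehicle or 2 or 3 of IL-25 (edgeR adjusted p up to 0.0943) and with the split term (0.848). Rora (edgeR adjusted p = 0.486) and Id2 (0.115), 2 other regulators of ILC2, did not pass. Id2 was at 52.3, 62.1 and 55.0 CPM with vehicle and 90.7, 114 and 96.7 CPM with IL-25, without overlap. With IL-33 it was at 267, 50.6 and 175 CPM, and that spread enters the shared estimate of its error. Myc was at 27.5 to 53.0 CPM with vehicle and 26.4 to 49.9 CPM with IL-25 (edgeR adjusted p = 0.907).

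Factors linked to progenitors and quiescence moved the other way. Of 16 tested members 6 fell and 0 rose, with a median log2 change of -0.26; 5 or 6 fell with any 1 library left out, and 4 with the split term. Tcf7, which encodes TCF-1 of early ILC and T cell precursors (mm10 chr11:52252371-52283014, minus strand), fell from 1374, 1282 and 1367 CPM to 756, 762 and 763 CPM (log2 change -0.82 ± 0.124, edgeR adjusted p = 8.65e-05). Satb1, a chromatin organiser of thymocytes, fell from 92.8, 117 and 102 CPM to 43.4, 55.3 and 49.4 CPM. Bcl6, a repressor, fell from 30.1, 16.4 and 40.8 CPM to 10.4, 12.0 and 5.57 CPM, and Sox4 from 52.3, 44.5 and 53.1 CPM to 18.1, 27.6 and 24.3 CPM. Foxo1, a factor of resting lymphocytes, fell by 0.51 ± 0.125 on the log2 scale. Tcf7 did not pass with the split term (edgeR adjusted p = 0.255), while Satb1, Bcl6, Sox4 and Foxo1 did. Thymocytes also express Tcf7, Satb1 and Sox4, and Dntt fell beside them; the part of the thymocyte transcripts in these falls was not tested.

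Genes of the NF-kB pathway rose in part: 7 of 25 tested, with 0 lower and a median log2 change of -0.02, so most of the list did not pass; 3 rose with the split term. Nfkbiz, an atypical nuclear IkB protein, went from 20.3, 38.7 and 42.7 CPM to 92.0, 89.3 and 97.4 CPM (log2 change 1.51 ± 0.212, edgeR adjusted p = 3.44e-05). Bcl3, another of these, went from 17.7, 18.7 and 35.1 CPM to 55.7, 65.2 and 55.7 CPM. The subunit gene Relb rose from 12.4 ± 1.92 to 25.0 ± 0.851 CPM. Otulin and Tnip1, both brakes on the pathway through ubiquitin chains, rose by 0.80 ± 0.127 and 0.61 ± 0.13 on the log2 scale. With the split term Nfkbiz (edgeR adjusted p = 0.157), Otulin (0.0515) and Tnip1 (0.0533) did not pass. Among 19 immediate early and MAP kinase feedback genes 3 rose and 0 fell, about as frequent as calls over all tested genes (15.0%). Gadd45g, Gadd45b and Ier3 rose, by 1.22 ± 0.189, 1.27 ± 0.217 and 0.69 ± 0.122 on the log2 scale. In this list 3 fell without IL-33 library 1, and 4 rose and 3 fell with the split term. Cish, a feedback gene of STAT5, rose from 125, 135 and 107 CPM to 215, 239 and 177 CPM. Ptpn22, a phosphatase of antigen receptor signalling, fell from 93.6 ± 2.52 to 52.6 ± 7.11 CPM and did not pass with the split term (edgeR adjusted p = 0.0541).

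Genes of the cell cycle gave the largest shares of risers among the 42 lists examined. Of 36 tested genes of DNA replication and nucleotide supply 33 rose and 0 fell (median log2 change 1.36), and of 39 of mitosis and the spindle 30 rose and 2 fell (median 2.07), against 9.07% and 5.90% of all genes. Mcm5 and Mcm6 encode subunits of the replicative helicase. Mcm5 went from 33.3, 36.3 and 28.5 CPM to 136, 115 and 137 CPM (log2 change 1.99 ± 0.216, edgeR adjusted p = 1.72e-06). Mcm6 went from 137, 135 and 125 CPM to 213, 242 and 221 CPM. Top2a, the topoisomerase that untangles chromosomes, went from 25.5, 38.7 and 17.1 CPM to 139, 124 and 144 CPM (log2 change 2.36 ± 0.217, edgeR adjusted p = 1.2e-07), and Ccnb2, a mitotic cyclin, from 5.88, 9.37 and 6.64 CPM to 57.7, 30.5 and 34.1 CPM. No library of one group reached into the other for these 4 genes. Lig1 (DNA ligase), Tk1 (thymidine kinase) and Rrm2 (ribonucleotide reductase) rose by 2.43 ± 0.274, 3.12 ± 0.411 and 2.97 ± 0.366 on the log2 scale. Pcna, the replication clamp, rose from a higher base, by 1.13 ± 0.142. In mitosis, Mki67 went from 2.62, 12.9 and 6.64 CPM to 63.5, 48.2 and 49.4 CPM, and Birc5, Aurkb, Cdca8 and Spc24, all of the chromosomal passenger complex or the kinetochore, rose by 2.57 ± 0.298, 2.79 ± 0.417, 2.86 ± 0.423 and 3.26 ± 0.355.

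The exceptions were few. Cdt1, Slbp and Dck did not pass among the replication genes. Cdc25b and Smc4 were the mitosis genes called lower, at log2 changes of -0.51 ± 0.143 and -0.58 ± 0.194. Cdc25b lost that call on leaving out library 2 or 3 of either group (edgeR adjusted p up to 0.109) and with the split term (edgeR adjusted p = 0.814), and Smc4 without vehicle library 1 or 3, any 1 IL-25 library or library 3 of both cytokines (edgeR adjusted p up to 0.247). Smc4 also lost it with the replicate block (edgeR adjusted p = 0.0612), by DESeq2 (adjusted p = 0.161) and under other filters on low counts. It passed with the split term, at a log2 change of -1.45 (edgeR adjusted p = 0.00169). With each library left out in turn 26 to 33 replication genes and 23 to 34 mitosis genes rose, and with the split term 19 and 14 did, at medians of 1.41 and 2.02.

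The sequences before the start sites of 4 of these genes are shown since the 2 lists differ in the short motifs they hold. Those of replication genes are known for sites of E2F factors, and those of mitotic genes for CCAAT boxes and the CHR element of the DREAM complex. All are RefSeq sequence on GRCm38.p6, from 230 bases before to 20 bases after the start: Mcm5 chr8:75109279-75109528 (plus strand), Mcm6 chr1:128359686-128359935 (minus), Top2a chr11:99024170-99024419 (minus) and Ccnb2 chr9:70421535-70421784 (minus). In Mcm5 and Mcm6 capitals mark TTTCCCGC or TTTGGCGC on either strand, and in Top2a and Ccnb2 they mark TTTGAA (CHR) and CCAAT on either strand.
Mcm5: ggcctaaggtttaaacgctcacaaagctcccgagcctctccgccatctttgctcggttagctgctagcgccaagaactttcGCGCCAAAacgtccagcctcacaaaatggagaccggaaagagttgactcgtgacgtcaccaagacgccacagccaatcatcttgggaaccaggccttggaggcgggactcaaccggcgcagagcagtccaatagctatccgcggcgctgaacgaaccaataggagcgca
Mcm6: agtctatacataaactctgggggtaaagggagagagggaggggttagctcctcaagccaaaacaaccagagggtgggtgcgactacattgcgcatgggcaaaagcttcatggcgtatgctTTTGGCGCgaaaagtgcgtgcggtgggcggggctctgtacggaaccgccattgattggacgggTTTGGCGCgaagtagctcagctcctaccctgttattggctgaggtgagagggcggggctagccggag
Top2a: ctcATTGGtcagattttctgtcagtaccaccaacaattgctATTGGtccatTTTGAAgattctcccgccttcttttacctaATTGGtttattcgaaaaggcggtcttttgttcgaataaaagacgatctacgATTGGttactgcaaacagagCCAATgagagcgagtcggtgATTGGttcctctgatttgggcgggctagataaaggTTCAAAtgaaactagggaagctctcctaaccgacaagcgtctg
Ccnb2: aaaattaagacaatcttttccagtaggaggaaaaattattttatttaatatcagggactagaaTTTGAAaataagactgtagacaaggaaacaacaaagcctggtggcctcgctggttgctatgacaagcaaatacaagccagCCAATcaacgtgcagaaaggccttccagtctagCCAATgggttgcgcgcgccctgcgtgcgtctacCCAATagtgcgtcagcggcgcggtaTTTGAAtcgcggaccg
In Mcm6 the E2F matches begin 110 and 47 bases before the start, and in Top2a a CHR match (TTCAAA on the strand shown) begins 23 bases before it. Windows of 250 bases before to 50 after a start were matched by symbol for 31 of the 36 replication genes and 35 of the 39 mitosis genes. An E2F match stood in 10 of the 31 (32.3%) and in 1 of the 35 (2.86%), against 3.74% of the 7187 tested genes with a window and 1.56% of all windows. A CHR match stood in 6 of the 31 (19.4%) and in 26 of the 35 (74.3%), against 14.1% of tested genes and 17.9% of all windows. CCAAT stood in 67.7% and 77.1%, against 43.1% of tested genes and 37.4% of all windows. A match describes these letters in this window and is not evidence of binding.

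Around the decision to divide, genes on both sides moved. Of 26 tested G1 cyclins, kinases, inhibitors and E2F factors 9 rose and 1 fell; without vehicle library 3, 5 rose, and with the split term 4 rose and 2 fell. E2f1 went from 5.79 ± 3.18 to 22.1 ± 1.23 CPM (log2 change 2.04 ± 0.338, edgeR adjusted p = 0.000242), and Ccne1, cyclin E1, from 7.44 ± 2.09 to 24.6 ± 3.98 CPM. Ccne2 had 0 counts with vehicle and 29 with IL-25, at least 7.55-fold higher than a floor of 3 counts over the vehicle group. The inhibitors Cdkn1a (p21) and Cdkn1b (p27) went opposite ways. Cdkn1a rose from 27.5, 44.5 and 30.4 CPM to 131, 110 and 121 CPM (log2 change 1.86 ± 0.183, edgeR adjusted p = 3.43e-07), and Cdkn1b fell from 68.7, 70.3 and 107 CPM to 30.5, 34.0 and 34.1 CPM (-1.31 ± 0.229, edgeR adjusted p = 0.000408). Of 20 apoptosis regulators and Pim kinases 7 rose and 1 fell; without vehicle library 2, 3 rose, as did 3 with the split term. Bcl2l1, whose product Bcl-xL protects cells, rose from 41.1 ± 5.24 to 113 ± 12.2 CPM, and the kinase gene Pim2 from 250 ± 11.6 to 443 ± 32.3 CPM. Bmf, a pro-apoptotic member of the Bcl-2 family, rose too, by 0.79 ± 0.177 on the log2 scale. In the fit with the split, Ccne2 did not pass (edgeR adjusted p = 0.143), and the others named here did.

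**Figure D3:**
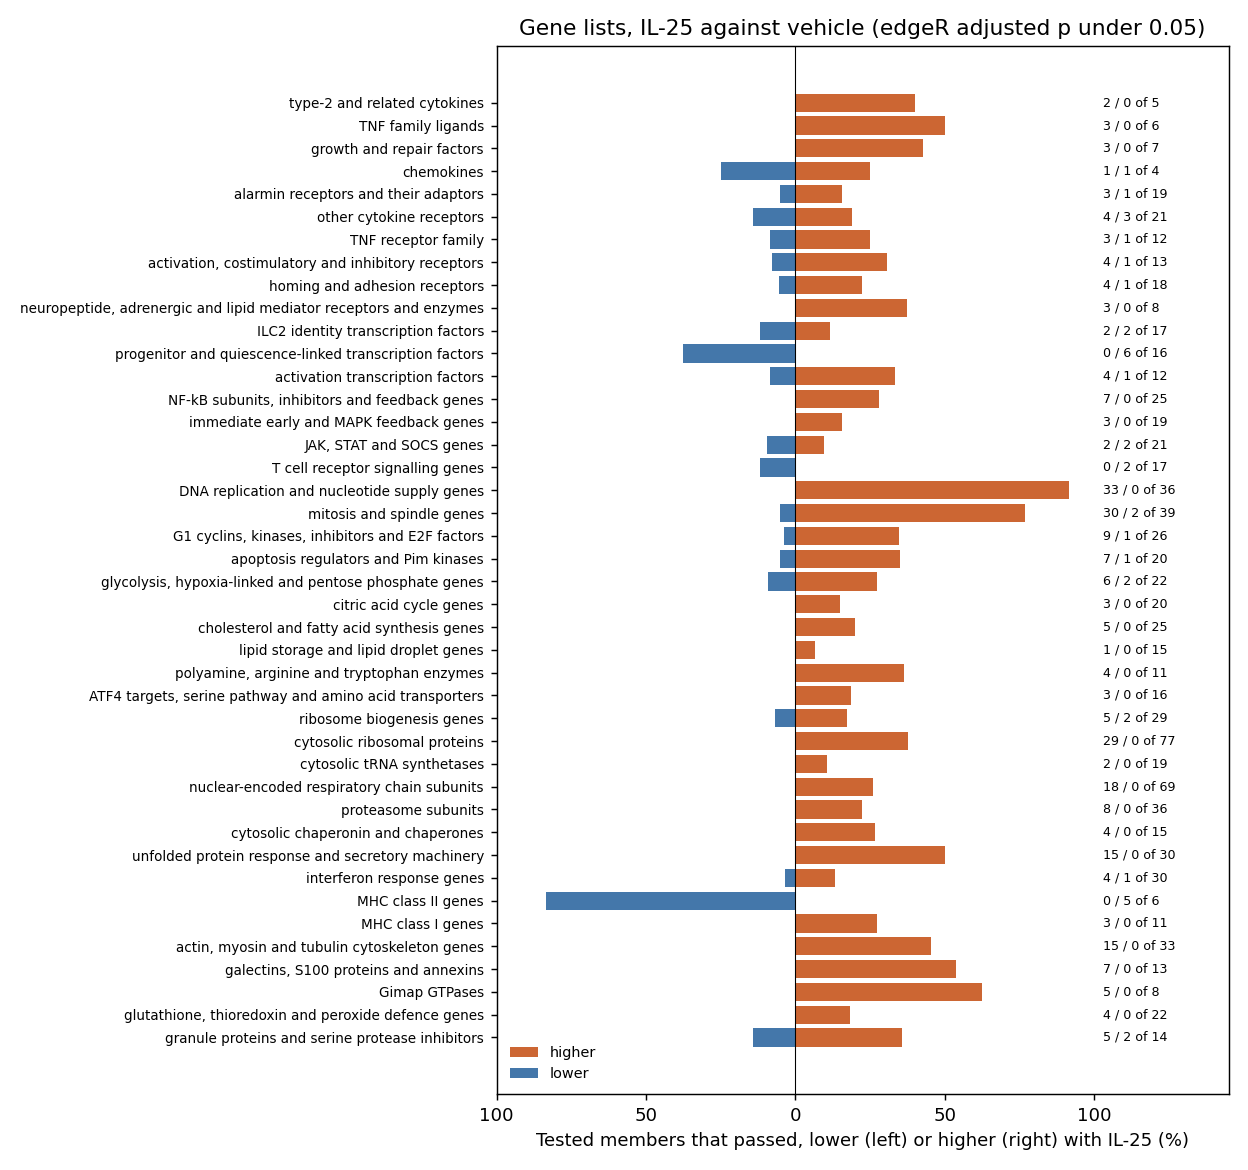
Bars show the percent of tested members of each of 42 gene lists that passed higher (right) or lower (left) with IL-25, with the counts at the right edge. Replication (33 of 36 higher) and mitosis genes (30 of 39) stand out on the right, MHC class II (5 of 6 lower) and progenitor-linked factors (6 of 16) on the left.

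Of 30 tested genes of the unfolded protein response and the secretory machinery 15 rose and 0 fell (median log2 change 0.48; 11 to 17 higher with 1 library left out, 9 with the split term). Sec11c, a signal peptidase subunit, went from 253, 266 and 318 CPM to 516, 491 and 520 CPM (log2 change 0.87 ± 0.126, edgeR adjusted p = 5.29e-05). The chaperone genes of the endoplasmic reticulum Calr, Pdia3 and Hspa5 rose by 0.72 ± 0.118, 0.96 ± 0.181 and 0.68 ± 0.143. With the split term Pdia3 (edgeR adjusted p = 0.727) and Hspa5 (0.645) did not pass. In the cytosol Hspa8, the constitutive Hsp70, rose from 912, 807 and 837 CPM to 1574, 1849 and 1683 CPM. Of 77 ribosomal protein genes 29 rose and 0 fell by small steps (median log2 change 0.36), with Rps2 going from 3347 ± 323 to 4945 ± 210 CPM. Leaving out vehicle library 1 or 3 lowered that count to 15 or 19, leaving out IL-25 library 3 lowered it to 18, and leaving out IL-33 library 3 raised it to 46; 18 rose and 1 fell with the split term. Of 69 respiratory chain subunits 18 rose (median 0.30), and that count became 5 or 10 when vehicle library 1 or 3 was left out, 11 or 7 for IL-25 library 2 or 3, and 29 for IL-33 library 3; it was 11 with the split term.

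Of 22 glycolysis, hypoxia-linked and pentose phosphate genes 6 were called higher and 2 lower (median log2 change 0.27), and 2 higher and 0 lower with the split term. Aldoa rose from 411, 471 and 406 CPM to 600, 687 and 637 CPM, Tpi1 from 89.6 ± 4.53 to 140 ± 10.6 CPM and Ldha from 405 ± 36.9 to 621 ± 64.4 CPM; Ldha did not pass with the split term (edgeR adjusted p = 0.668). Gapdh was called on 1 library: it was at 10.5, 8.20 and 3.80 CPM with vehicle and 11.7, 12.8 and 1412 CPM with IL-25, and without IL-25 library 3 the log2 change was 0.65 (edgeR adjusted p = 0.875). It also lost the call without any 1 vehicle library (edgeR adjusted p = 0.0682 to 0.0884), with the replicate block (0.0599), with the split term (0.947) and by limma-voom (adjusted p = 0.492). Of 25 genes of sterol and fatty acid synthesis 5 rose and 0 fell, and 3 rose without vehicle library 1 or IL-25 library 1 or with the split term; Fdps, of the mevalonate pathway, went from 190, 211 and 231 CPM to 352, 356 and 378 CPM. Fabp5, a fatty acid carrier and the 1 of 15 lipid storage genes to pass, went from 5.88, 10.5 and 3.80 CPM to 26.6, 21.3 and 26.4 CPM. Psat1, of serine synthesis, rose by 1.20 ± 0.243, Srm, of polyamine synthesis, by 0.56 ± 0.136, and Ass1, of arginine synthesis, by 1.47 ± 0.298 on the log2 scale. Once the split was a term, Srm (edgeR adjusted p = 0.195) and Ass1 (0.411) did not pass. Nqo1, a quinone reductase, went from 43.2, 53.9 and 39.8 CPM to 138, 101 and 83.5 CPM.

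Among structural genes, galectins, annexins and S100 proteins rose in 7 of 13 tested, with 0 lower and a median log2 change of 0.68; 4 rose with the split term. Lgals1, galectin-1 (mm10 chr15:78926725-78930465), went from 1925, 2220 and 2110 CPM to 5864, 5878 and 6649 CPM (log2 change 1.56 ± 0.117, edgeR adjusted p = 6e-09). Lgals3 went from 1813, 1854 and 1843 CPM to 3953, 4345 and 4042 CPM, and Anxa2, annexin A2, from 157, 162 and 151 CPM to 382, 471 and 406 CPM. These were among the best-counted genes, and library values within a group differed little. S100a4 and S100a6, calcium-binding proteins, each rose by 1.20 on the log2 scale (SE 0.144 and 0.137); S100a4 did not pass with the split term (edgeR adjusted p = 0.0674). Of 33 cytoskeletal genes 15 rose and 0 fell (median 0.43), and 7 rose with the split term. Myl4, a myosin light chain of atrial and embryonic muscle (mm10 chr11:104550663-104595753), was at 2.62, 8.20 and 2.85 CPM with vehicle and 75.2, 76.5 and 80.0 CPM with IL-25, a log2 change of 4.20 ± 0.283 (edgeR adjusted p = 1.41e-09). Stmn1, a regulator of microtubules, rose by 1.93 ± 0.217 and Tuba1b by 1.43 ± 0.173; both also vary with cell division. Of 8 Gimap genes, GTPases of lymphocytes, 5 rose, and Gimap4 went from 39.2, 42.2 and 41.7 CPM to 99.8, 99.2 and 93.2 CPM. With the split term Gimap4 did not pass (edgeR adjusted p = 0.94). Without vehicle library 1, 3 Gimap genes rose, and 2 without vehicle library 3 or IL-25 library 2 or with the split term.

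Of 30 interferon response genes 4 rose and 1 fell, about as frequent as calls over all tested genes (15.0%). Of the 4 risers 3 were Ifitm genes, whose products block virus entry. With the split term 2 rose and 3 fell. Ifitm2 went from 315, 378 and 359 CPM to 1012, 937 and 1156 CPM (log2 change 1.56 ± 0.132, edgeR adjusted p = 3.07e-08). Ifitm1 rose from 6523 ± 498 to 10129 ± 747 CPM and Ifitm3 from 590 ± 46.5 to 1027 ± 92.4 CPM, and the latter did not pass with the split term (edgeR adjusted p = 0.143). These genes are close copies, so reads may be split between them. Gbp4, an interferon-induced GTPase, fell by 0.82 ± 0.156 on the log2 scale (0.0661 with the split term). The 2 main granzymes diverged. Gzmb had 1 count over the vehicle libraries and was at 17.5, 4.96 and 25.0 CPM with IL-25 (edgeR adjusted p = 0.000427; 0.54 with the split term), whereas Gzma fell from 260, 253 and 267 CPM to 139, 134 and 161 CPM (log2 change -0.84 ± 0.162, edgeR adjusted p = 0.00104). Serpina3g, a protease inhibitor of activated lymphocytes, went from 41.8, 34.0 and 52.2 CPM to 151, 148 and 139 CPM. The whey acidic protein family split likewise: Wfdc21 rose to 20.1, 19.8 and 22.3 CPM from 0, 3.51 and 3.80 CPM, and Wfdc18 fell from 36.0, 50.4 and 46.5 CPM to 11.7, 12.0 and 17.4 CPM.

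Several of the largest changes fell in none of the lists. Asic3, an acid-sensing ion channel best known in sensory neurons (mm10 chr5:24413392-24417835), went from 7.85, 9.37 and 10.4 CPM to 128, 114 and 114 CPM, for a log2 change of 3.70 ± 0.262 (edgeR adjusted p = 2.93e-09). Asb2, a subunit of ubiquitin ligases, went from 6.54, 18.7 and 13.3 CPM to 73.2, 73.7 and 109 CPM, and Adap1, which binds phosphoinositides and acts on Arf GTPases, from 1.96, 7.03 and 2.85 CPM to 29.2, 24.1 and 25.0 CPM. All 3 stood clear of the vehicle libraries. Mxd3, a partner of MAX, rose by 3.30 ± 0.413 and Parm1, a mucin-like membrane protein, by 2.91 ± 0.405 on the log2 scale; Parm1 did not pass with the split term (edgeR adjusted p = 0.722). Among fallers, Matk, a kinase that restrains Src family kinases, went from 47.7, 45.7 and 56.0 CPM to 16.2, 18.4 and 16.0 CPM (log2 change -1.56 ± 0.199, edgeR adjusted p = 1.23e-05). Abcg3, a transporter, went from 37.3, 32.8 and 49.3 CPM to 16.8, 10.6 and 6.26 CPM, and Il15, a cytokine gene, from 14.4, 14.1 and 21.8 CPM to 6.48, 4.96 and 5.57 CPM. Cdyl2, a chromodomain protein, fell by 1.47 ± 0.263. All 4 passed with the split term.

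Many of the largest falls belonged to genes that follow the split of the libraries. Glycam1, a mucin-like glycoprotein of high endothelial venules and mammary gland, was at 116, 223 and 439 CPM with vehicle and had 0 counts in the 3 IL-25 libraries, at least 380-fold lower than with vehicle against a floor of 3 counts over the IL-25 group. Clu, which encodes clusterin, was at 24.2, 69.1 and 353 CPM with vehicle and had 1 count over the IL-25 libraries. Apoe went from 82.4, 132 and 700 CPM to between 6.96 and 12.0 CPM, Igfbp7 from 47.1, 57.4 and 91.1 CPM to 1.94, 2.83 and 2.09 CPM, and the complement gene C3 from 11.1, 25.8 and 58.8 CPM to 1.30, 0 and 0.696 CPM. Vehicle library 3 was the highest for these 5 genes. Mir692-1, a microRNA gene with the third largest fitted fall, followed the split only in part. It was at 19.1 CPM or less in every library low in Glycam1. Among the others it was high in some, but at 11.4 CPM in vehicle library 3 and at 6.54 and 18.5 CPM in libraries 1 and 3 with both cytokines. It was at 510, 738 and 11.4 CPM with vehicle and 3.89, 19.1 and 2.78 CPM with IL-25, so the groups overlapped, and its call (edgeR adjusted p = 0.0312) was lost without vehicle library 1 or 2 or any 1 IL-25 library (up to 0.121), by limma-voom (adjusted p = 0.298) and with the split term (0.722). The fibroblast markers Dcn and Col1a2 were at 5.23 to 15.2 CPM with vehicle and at 0 in the 3 IL-25 libraries, and so were the chemokine genes Cxcl1 and Cxcl12, at 6.54 to 26.6 CPM with vehicle. Pecam1, an endothelial marker that leukocytes also carry, rose instead, from 82.3 ± 4.00 to 158 ± 6.83 CPM, so that the sum of the 3 stromal markers with a row, of 9 listed, was 88.9 to 113 CPM with vehicle and 151 to 165 CPM with IL-25. MHC class II molecules display peptides on antigen-presenting and some stromal cells. Of 6 tested genes of this class 5 were called lower, 2 without vehicle library 3 and 3 without IL-25 library 1. H2-Aa went from 29.4, 49.2 and 69.3 CPM to 1.94, 1.42 and 2.09 CPM (log2 change -4.66 ± 0.74, edgeR adjusted p = 0.000152). Cd74, the invariant chain, went from 14.4, 15.2 and 67.4 CPM to 2.59, 7.08 and 4.87 CPM and did not pass without vehicle library 3 (edgeR adjusted p = 0.119). The macrophage and dendritic cell markers with a row, 4 of 12, summed to 361 to 408 CPM with vehicle and 389 to 407 CPM with IL-25. Nearly all of that sum was Cd68 and Cst3, neither of which passed. Lyz2 had 6 counts with vehicle and 1 with IL-25, Adgre1 had 1 and 3, and both were too low to test. Markers of B cells (3 of 8 with a row) summed to 153 to 225 and 236 to 314 CPM. Of the 2 tested B cell markers 1 was called higher, and 0 without vehicle library 2, without IL-25 library 2 or with the split term. Markers of thymic epithelium and tuft cells (3 of 13 with a row) summed to 8.20 to 11.1 and 36.2 to 51.8 CPM. Most of the rise in the epithelial and tuft cell sum was Aire, which did not pass (edgeR adjusted p = 0.307). Of the NK cell markers only Gzma had a row, and of the mast cell and granulocyte markers only Cpa3, at 23.4 to 34.0 and 39.7 to 57.0 CPM. Cpa3 was called higher, at a log2 change of 0.72. It lost that call without vehicle library 2, without IL-25 library 1 or 3 and with the split term. The 2 ILC3 markers with a row summed to at most 2.34 CPM, and 0 of the 5 erythroid markers had a row. Under the split term 0 of the 6 MHC class II genes passed, nor did Glycam1 (edgeR adjusted p = 0.663), Clu (0.933), Apoe (0.0984), Igfbp7 (0.984), C3 (0.764), Dcn (0.42), Col1a2, Cxcl1 or Cxcl12. The part of other cells or of the split in these falls was not tested.

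**Figure D4:**
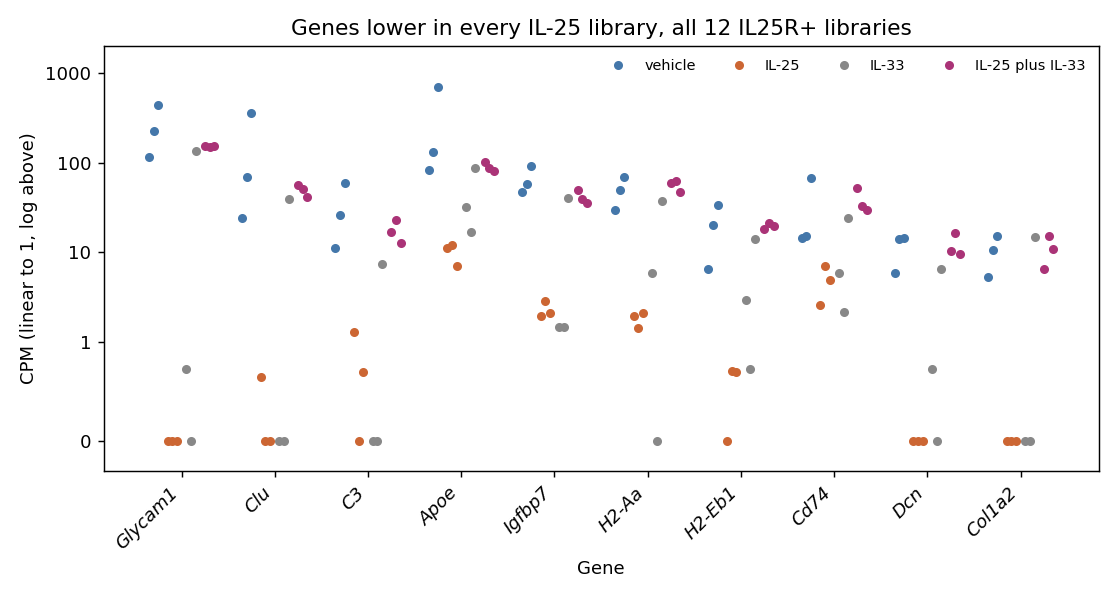
Points are the CPM of single libraries for 10 genes in all 12 IL25R+ libraries, on an axis that is linear to 1 and logarithmic above. The IL-25 libraries lie below the vehicle libraries for each gene, libraries 1 and 2 with IL-33 lie low as well, and the remaining ones lie nearer to vehicle.

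The same cytokine added to IL-33 gave a comparison that shares no library with the first. Both cytokines against IL-33 alone changed 1519 genes (17.2%), 822 higher and 697 lower (9.29% and 7.88%). Of the genes that passed in either comparison 577 passed in both, and 549 of these in the same direction (384 higher, 165 lower), which is 41.4% of the 1325 and 36.1% of the 1519. The other 28 went opposite ways. Of the 1325 genes 83.7% had the same sign in the second comparison, against 63.2% of all tested genes. Pou2f2 rose by 2.30, Batf by 2.09, Myl4 by 3.22, Asic3 by 3.37 and Lgals1 by 1.48 on the log2 scale with IL-33 present, next to 3.04, 2.48, 4.20, 3.70 and 1.56 without it. Of the replication and mitosis genes that rose with IL-25 alone, 28 of 33 and 23 of 30 rose there too. Tcf7, Satb1 and Foxo1 fell in both settings, as did Dntt and Gzma.

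The test of the difference between the 2 effects called 208 genes (2.35%), 92 (1.04%) with a higher and 116 (1.31%) with a lower effect of IL-25 when IL-33 was present. That count was 14 with the split term, 12 with a higher and 2 with a lower effect. Which of the differences named here are among the 14 is not given. The count ran from 45 without library 2 of both cytokines to 701 without IL-33 library 3. Il1rl1 rose by 2.86 on the log2 scale with IL-25 alone and by 0.90 on top of IL-33 (difference -1.96, edgeR adjusted p = 0.0152), while Icos rose by 1.94 alone and did not pass on top of IL-33 (0.25; difference -1.69, 0.0348). Cdkn1b fell with IL-25 alone and did not pass on top of IL-33, at a log2 change of 0.36 (difference 1.67, 0.0109). Many genes of the split differed between the 2 settings: C3, Igfbp7 and H2-Aa fell with IL-25 alone and rose by 3.01, 1.69 and 2.11 when it was added to IL-33. IL-33 libraries 1 and 2, the low side of that comparison, lie on the side of the IL-25 libraries in the split.

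**Figure D5:**
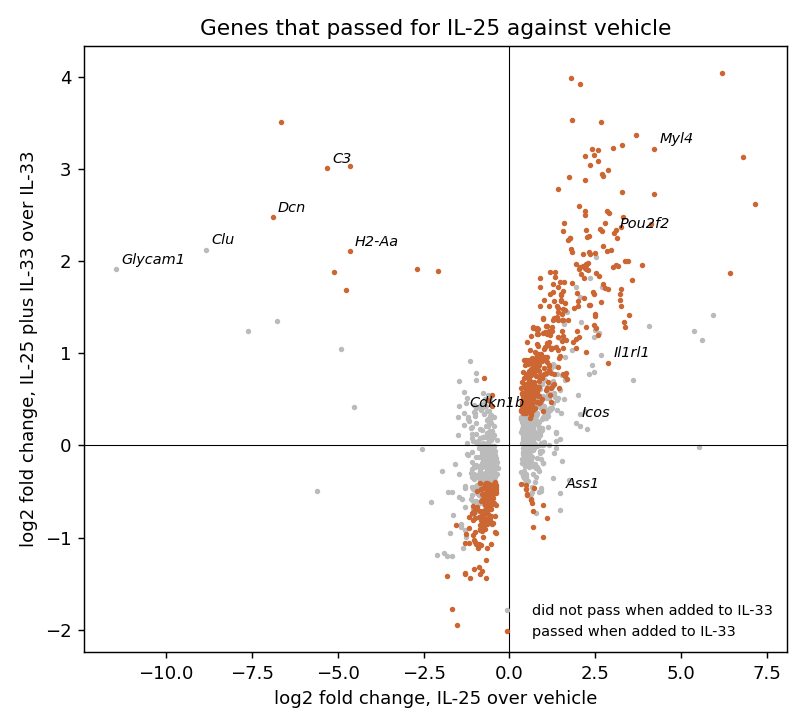
Each point is 1 of the 1325 genes that passed for IL-25 against vehicle, with that log2 change on the horizontal axis and the log2 change of both cytokines over IL-33 on the vertical axis. Most points lie in the upper right and lower left (1109 of 1325 share their sign), and the genes of the split lie in the upper left.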

How the data were processed

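MARS-seq libraries of IL25R+ thymic ILC2 were analysed from the deposited raw counts per gene. Per the submitters' processing notes, bcl2fastq, cutadapt, STAR 2.5.2b, HTSeq, DESeq2 and mm10 were used; the strand setting of the counting is not given in the sources used here. In the authors' deposited table of log2 fold changes and adjusted p-values, 939 genes passed 0.05, next to 1325 here. At 2-fold or more 326 passed there, and the 294 of these tested here were called in the same direction. Both analyses rest on the same libraries, so this is not independent evidence. No column was left without a sample.

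The 12 libraries of 4 groups were fitted together with edgeR 4.0.16 (R 4.3.3; TMM, filterByExpr with a minimum count of 10, quasi-likelihood F test, Benjamini-Hochberg over 8850 genes, threshold 0.05). The SE is the log2 change over the square root of F. Alternatives used limma 3.58.1 (voom), DESeq2 1.42.0, other filters and scalings, a replicate block, the split term and each library left out. The edgeR step was tested on simulated data.

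Members and gene lists were chosen with earlier results of these data known. Named genes are list members, the 20 largest changes per direction at a mean of 10 CPM or more, and genes a limit turns on; the text names part of them. Promoters are RefSeq windows and were not tested. Genes overlapping another on the opposite strand, such as Il17rb, Irak3, Tk1, Cdca8 and Mxd3, and close copies (Ifitm, MHC, tubulin, ribosomal protein genes, Gapdh) are uncertain. Counting error alone underlies the floors of 3 counts.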

Additional observations from a re-analysis of the deposited data

Results flagged for a closer look

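The effect of IL-25 with IL-33 present minus its effect without it passed the edgeR test of the difference for 25 genes followed here. With the split term 14 of all tested genes passed that test, 12 higher and 2 lower, so not all of the 25 did. All values are fitted log2 differences. Those of genes with no counts in a group depend on a prior count. Among genes of the split they were 13.37 for Glycam1, 10.97 for Clu, 10.16 for Cxcl12, 9.38 for Dcn, 8.86 for Cxcl1, 8.33 for C3, 8.12 for Col1a2, 6.46 for Igfbp7 and 5.95 for Apoe. The MHC class II genes H2-Eb1, H2-Aa, Cd74 and H2-Ab1 gave 7, 6.77, 4.62 and 3.97.

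Aire, a transcription factor of medullary thymic epithelium, gave -18.28. It did not pass for IL-25 against vehicle (edgeR adjusted p = 0.307). It was at 0, 0 and 1.90 CPM with vehicle, 36.3, 29.8 and 24.3 CPM with IL-25, 10816, 28.2 and 0 CPM with IL-33, and 0, 0 and 1.27 CPM with both. IL-33 library 1 alone carried the high value, and Aire was chosen for mention after its values were seen.

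Negative differences were fitted for 8 more genes. Il1rl1 (-1.96) rose in both settings, and Ass1 (-1.99), Icos (-1.69) and Spcs3 (-1.42) rose with IL-25 alone and did not pass on top of IL-33. Gpx4 (-1.63) and Myl12a (-0.76) rose with IL-25 alone, by 0.99 and 0.35, and fell on top of IL-33, by 0.64 and 0.41. The call of Myl12a with IL-25 alone was lost on leaving out library 1 or 3 of vehicle or 1 or 2 of IL-25 (edgeR adjusted p up to 0.0913). With the split term neither Myl12a (edgeR adjusted p = 0.178) nor Gpx4 (0.87) passed for IL-25 alone. Hnrnpa1 (-1.56) and Hnrnph1 (-1.24) did not pass with IL-25 alone, at 0.35 and 0.39, and fell by 1.22 and 0.85 on top of IL-33. Positive differences were fitted for Cdkn1b (1.67), Rpl39 (1.66) and Uqcrb (1.55).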

How the results depend on the processing

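The number of genes called for IL-25 against vehicle, 1325, was 645 with the split term, and 832 to 1718 with 1 library left out. It was 1060 by DESeq2, 1335 by limma-voom and 1813 when the 2 groups were fitted alone. For IL-25 added to IL-33, 1519 became 649 with the split term, 982 with the 2 groups alone, and 933 to 1928 with 1 library left out. The count for the difference, 208, was 14 with the split term and 45 to 701 with 1 library left out. With the split term the log2 change turned to 1.04 for C3, 0.58 for Col1a2, 0.69 for H2-Ab1, 2.04 for Mir692-1 and -0.10 for Gpx4, and the difference for Gpx4 to 0.28. The cause was not tested.

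Whether same-numbered vehicle and IL-25 libraries share a source is not given in the labels. Their deviations from the group means correlated at 0.0117, -0.0329 and 0.0445. These values cannot decide it, since counting error is part of each deviation. With the replicate block 1246 genes were called.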
